A study of Caenorhabditis elegans with 8 samples.

Results

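The cyp-13A genes of Caenorhabditis elegans encode cytochrome P450 enzymes, and 9 of them (cyp-13A1 to cyp-13A8 and cyp-13A12) were followed by symbol through a deposited table of RNA-seq read counts. They stood on 10 of the 21309 rows of that table, because cyp-13A5 was given both to a gene model and to a locus that the authors added. Whole worms had been exposed for 1 h to 200 µM magnolol (3 libraries) or to 200 µM honokiol (2 libraries), and the control was DMSO (3 libraries). Magnolol and honokiol are isomeric biphenols of Magnolia bark that carry the same hydroxyl and allyl groups at different ring positions. No source used here gives strain, sex, stage or the origin of the replicates, so the spread between replicates may be technical. Total counts per library ran from 30274330 to 35888186. All 10 rows passed the low-count filter, as did 16813 rows in all.

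Cytochrome P450s are haem enzymes that insert an oxygen atom into foreign compounds and into endogenous lipids, taking electrons from a reductase. The cyp-13A genes belong to the CYP3 clan, the clan that holds the drug-metabolising CYP3A enzymes of vertebrates. In worms, cyp-13A7 is known as a gene induced by the drug rifampicin, and cyp-13A12 is known to act below the oxygen sensor EGL-9 and the factor HIF-1 in the behavioural response to reoxygenation. No own role is given here for the other members beyond the family's.

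The members were chosen by symbol, and selected on the level of these genes with both compounds against control, which was already known. No threshold on a value was used. Levels and changes against control are therefore given as a description. Their calls are counted only beside those of all rows, and nothing is read from them. The direct comparison of the isomers was tested, although whether it played a part in the choice of members is not recorded. The family holds further members outside this set, and cyp-13A10 and cyp-13A11 are given after the 9 genes.

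Of the 9 genes, 8 lie side by side on chromosome II of WBcel235, in a run of 28389 bp from cyp-13A1 (9779181 to 9781997) to cyp-13A8 (9805600 to 9807569). The word cluster therefore covers these 8 genes and not cyp-13A12, which lies on chromosome III at 13024547 to 13028017. All 9 are annotated as protein-coding, with 5 to 10 exon blocks and 1594 to 2258 bases of exon. On chromosome II, 7 of the 8 genes are on the minus strand and cyp-13A7 is on the plus strand. The 3′ ends of cyp-13A7 and cyp-13A8 face each other across 86 bp. The other gaps in the run are 395 to 2458 bp, and the widest lies between cyp-13A3 and cyp-13A4. Within the run the annotation places the small protein-coding gene T10B9.14, which had no read in any library, and a non-coding RNA on the strand opposite to cyp-13A6. These genes are paralogs, and neither the counting of reads with several matches nor the strand setting is stated in any source used here. Their separate values are uncertain to the extent that reads were shared.

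With either compound, every member was higher than in DMSO worms, and the run on chromosome II fell into 2 stretches. The first 3 genes, cyp-13A1 to cyp-13A3, were 2.34-fold to 6.04-fold higher, while cyp-13A4 to cyp-13A8 were 21.8-fold to 580.5-fold higher. The upper end is cyp-13A8 with magnolol, whose control mean rests on 19, 4 and 0 counts, so its size is uncertain. Together the 10 rows took 0.145% of all counts with magnolol, 0.163% with honokiol and 0.00371% in control, as group means. Their summed level was 1501 ± 134 CPM with magnolol and 1579 ± 92.4 CPM with honokiol, against 36.6 ± 3.62 CPM in control (CPM, counts scaled to TMM-adjusted library sizes, mean ± SD, n = 3, 2 and 3). That is 41.0-fold and 43.1-fold the control level. In whole animals, more transcript per cell and more cells that hold the transcript cannot be told apart.

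Of all counts on the 79 rows whose symbol begins with cyp-, the 10 rows held 56.4% to 59.8% in magnolol libraries, 40.9% to 41.4% in honokiol libraries and 3.77% to 4.49% in control libraries. The groups did not overlap. The summed levels with magnolol and honokiol overlapped, while the share of the P450 counts was larger with magnolol in each library. Counts on all 79 rows were 81584 to 91241 in magnolol libraries and 123233 and 135528 in honokiol libraries. The smaller share with honokiol thus reflects more counts on the other P450 rows, not fewer on the 10 rows.

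By the quasi-likelihood test of edgeR, adjusted by Benjamini-Hochberg over all rows, 10 of 10 rows were higher with magnolol, where 2.16% of all tested rows were called higher and 0.702% lower. With honokiol it was also 10 of 10, where 3.04% of all rows were called higher and 0.393% lower. These comparisons chose the members. The median log2 change of the 10 rows was 5.44 with magnolol and 6.17 with honokiol, against 0.0027 and -0.012 over all rows tested. Both comparisons share the 3 control libraries. As markers of what the whole worms held, the summed level of 4 intestinal genes (ges-1, elt-2, ifb-2 and act-5) ran from 1212 to 1453 CPM with magnolol, 1089 to 1316 CPM with honokiol and 1169 to 1244 CPM in control. None of the 20 marker rows found for intestine, muscle, neurons, epidermis, germline and sperm was called in any comparison by edgeR, DESeq2 or limma-voom, and none was at 0. At an unadjusted p under 0.05 in edgeR there were 3 of them with magnolol, 1 with honokiol and 6 between the isomers. Over all 16813 rows tested there were 2593, 1822 and 2699 in that order.

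**Figure D1:**
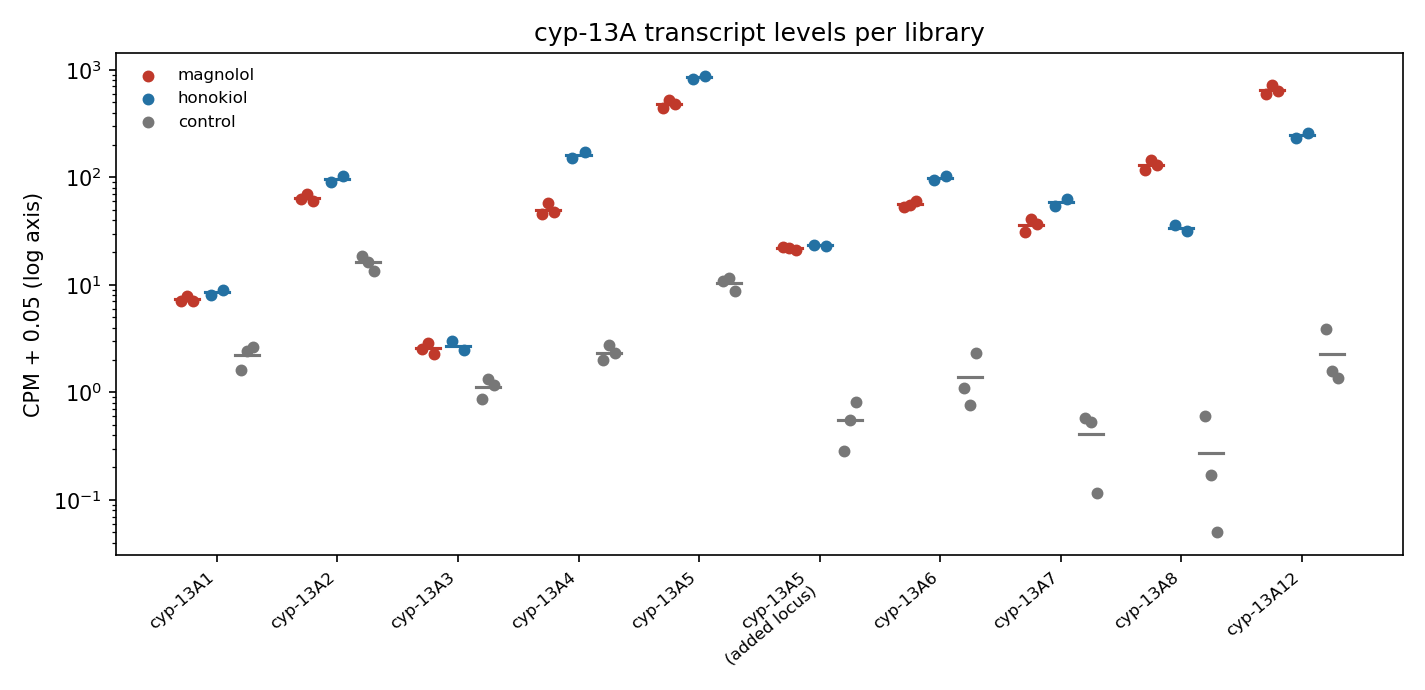
Level of each cyp-13A row in each of the 8 libraries, in CPM plus an offset of 0.05 on a log axis, in chromosome order with cyp-13A12 last; points are libraries and short lines are group means. Treated libraries lie above control libraries for every row, and magnolol lies above honokiol for cyp-13A8 and cyp-13A12.

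The left stretch of the run changed least. The cyp-13A1 transcript stood at 7.01, 7.825 and 6.96 CPM in magnolol libraries and 8.07 and 8.93 CPM in honokiol libraries, against 1.58, 2.35 and 2.58 CPM in control libraries. The cyp-13A3 transcript was at 2.51, 2.80 and 2.23 CPM with magnolol and 2.94 and 2.40 CPM with honokiol, against 0.817, 1.28 and 1.12 CPM in control. Both were low in every library, and treated and control libraries did not overlap for either. Their log2 changes were 1.75 ± 0.20 and 1.22 ± 0.29 with magnolol and 1.97 ± 0.22 and 1.31 ± 0.32 with honokiol (± SE of the fit).

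Between these lies cyp-13A2, which was the most abundant member per length in control worms. It had 62.3, 69.3 and 60.2 CPM with magnolol and 91.3 and 103 CPM with honokiol, against 18.4, 16.4 and 13.5 CPM in control. The log2 change was 1.99 ± 0.12 with magnolol and 2.59 ± 0.13 with honokiol. Every honokiol library was above every magnolol library.

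Across the widest gap of the run, the changes were far larger. The cyp-13A4 transcript had 45.1, 57.5 and 47.6 CPM with magnolol and 151 and 170.2 CPM with honokiol, against 1.96, 2.68 and 2.25 CPM in control. Its log2 change was 4.45 ± 0.14 with magnolol and 6.13 ± 0.15 with honokiol. Per length, the control levels of cyp-13A4 and cyp-13A1 overlapped, at 1.39 ± 0.22 and 1.22 ± 0.30 RPKM.

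The gene model of cyp-13A5 was the most abundant of the run in treated worms. It had 441, 524 and 481 CPM with magnolol and 823 and 878 CPM with honokiol, against 10.7, 11.5 and 8.76 CPM in control. The log2 change was 5.54 ± 0.14 with magnolol and 6.36 ± 0.14 with honokiol. The honokiol libraries lay above all magnolol libraries.

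The added locus that carries the symbol cyp-13A5 had 22.6, 22.1 and 21.2 CPM with magnolol and 23.2 and 23.1 CPM with honokiol, against 0.234, 0.506 and 0.761 CPM in control. Its position is not given in the table. Unlike the gene model, it stood at nearly the same level with either isomer. It took 4.88%, 4.05% and 4.21% of the counts assigned to cyp-13A5 in magnolol libraries and 2.75% and 2.57% in honokiol libraries. In control libraries, where it had 8 to 23 counts, it took 2.13%, 4.22% and 7.99%. The magnolol and honokiol shares did not overlap. An exact permutation test, two-sided, gave p = 0.1, the smallest value that 3 against 2 libraries allow, so it cannot decide whether the shares differ. It was not among the planned tests. Shares of this kind do not depend on library scaling.

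The next genes along the run, cyp-13A6 and cyp-13A7, had low levels in control worms. For cyp-13A6 the levels were 53.3, 54.7 and 60.2 CPM with magnolol and 93.4 and 103 CPM with honokiol, against 1.05, 0.714 and 2.28 CPM in control. For cyp-13A7 they were 30.6, 41.3 and 36.8 CPM with magnolol and 54.5 and 63.0 CPM with honokiol, against 0.526, 0.476 and 0.0661 CPM in control. Treated libraries did not overlap with control for either gene, and honokiol libraries lay above magnolol libraries. The mean of cyp-13A6 was 41.6-fold the control mean with magnolol and 72.8-fold with honokiol, with 95% intervals of the log2 change of 4.90 to 5.90 and 5.69 to 6.73. The log2 changes of the rifampicin-induced gene cyp-13A7 were 6.62 ± 0.27 with magnolol and 7.31 ± 0.28 with honokiol. They rest on 18, 16 and 2 counts in the control libraries. Without control 3, the control library with 69 of the cyp-13A6 counts against 36 and 24 in the others, the log2 changes of cyp-13A6 were 5.98 and 6.80.

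At the right end of the run, cyp-13A8 had the order of the isomers the other way round. It had 118, 143 and 130.2 CPM with magnolol and 35.9 and 31.8 CPM with honokiol, against 0.555, 0.119 and 0 CPM in control. The control value rests on 19, 4 and 0 counts, so its log2 changes of 9.10 ± 0.32 with magnolol and 7.16 ± 0.33 with honokiol depend on 1 library. Without control 1 they were 10.94 and 8.996, and without control 3 they were 8.57 and 6.64.

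On chromosome III, cyp-13A12 followed the same order as cyp-13A8. It had 592, 718 and 640.4 CPM with magnolol and 231 and 261 CPM with honokiol, against 3.85, 1.52 and 1.32 CPM in control. The log2 change was 8.17 ± 0.29 with magnolol and 6.77 ± 0.28 with honokiol, and 8.83 and 7.43 without control 1, the control library in which it was highest. Every magnolol library was above every honokiol library.

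**Figure D2:**
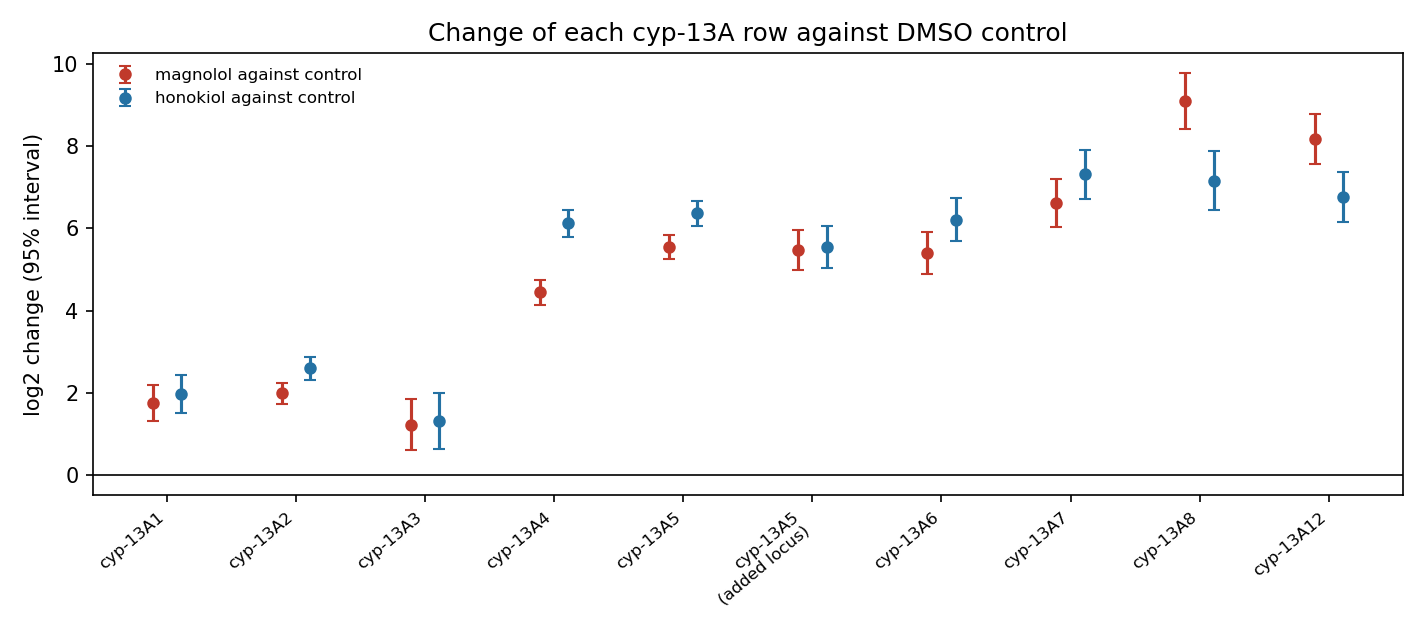
Log2 change of each cyp-13A row against DMSO control, with magnolol and with honokiol, in chromosome order with cyp-13A12 last; points are fitted changes and bars are 95% intervals. The changes lie between 1.22 and 2.59 for cyp-13A1 to cyp-13A3 and between 4.45 and 9.10 for the other rows.

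Set on a scale per length (RPKM, from TMM-scaled library sizes and exon length), the order of the members differed between the groups. In magnolol worms cyp-13A12 was highest at 377 ± 36.8 RPKM, followed by cyp-13A5 at 289 ± 25.03 and cyp-13A8 at 81.8 ± 8.01. Behind them cyp-13A6 (31.9 ± 2.05), cyp-13A4 (30.2 ± 3.97) and cyp-13A2 (28.3 ± 2.12) had overlapping ranges, and cyp-13A7 (22.3 ± 3.30), cyp-13A1 (4.10 ± 0.27) and cyp-13A3 (1.499 ± 0.17) followed without overlap. In honokiol worms cyp-13A5 was highest at 511 ± 23.5 RPKM, then cyp-13A12 at 142 ± 12.2 and cyp-13A4 at 97.0 ± 8.22. The order went on with cyp-13A6 (55.8 ± 3.85), cyp-13A2 (43.1 ± 3.75), cyp-13A7 (36.2 ± 3.70), cyp-13A8 (21.3 ± 1.83), cyp-13A1 (4.80 ± 0.34) and cyp-13A3 (1.59 ± 0.23). None of these ranges of 2 libraries overlapped with its neighbour. In control worms cyp-13A2 (7.14 ± 1.10 RPKM) and cyp-13A5 (6.20 ± 0.84 RPKM) had overlapping ranges. The other 7 averaged 0.141 to 1.39 RPKM, and neighbours in that order had overlapping ranges except cyp-13A3 and cyp-13A7.

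The division of the summed level shows the same shift as shares. With magnolol, cyp-13A12 made up 43.5% ± 0.35 of the summed RPKM of the 9 gene models, cyp-13A5 33.4% ± 0.23 and cyp-13A8 9.44% ± 0.09. With honokiol, cyp-13A5 made up 56.0% ± 0.70, cyp-13A12 15.6% ± 0.42, cyp-13A4 10.6% ± 0.28 and cyp-13A8 2.34% ± 0.34. In control, cyp-13A2 made up 37.4% ± 2.00 and cyp-13A5 32.6% ± 2.37, while cyp-13A12 made up 6.62% ± 3.63 and cyp-13A8 0.689% ± 0.88 (SD, n = 3, 2 and 3). The cyp-13A2 share was 3.27% ± 0.20 with magnolol and 4.71% ± 0.13 with honokiol, so the gene that led in control was a minor part in treated worms. The share of cyp-13A5 was close in magnolol and control worms and larger with honokiol. Within the treated groups the largest SD of a share was 0.70 percentage points, for cyp-13A5 with honokiol.

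**Figure D3:**
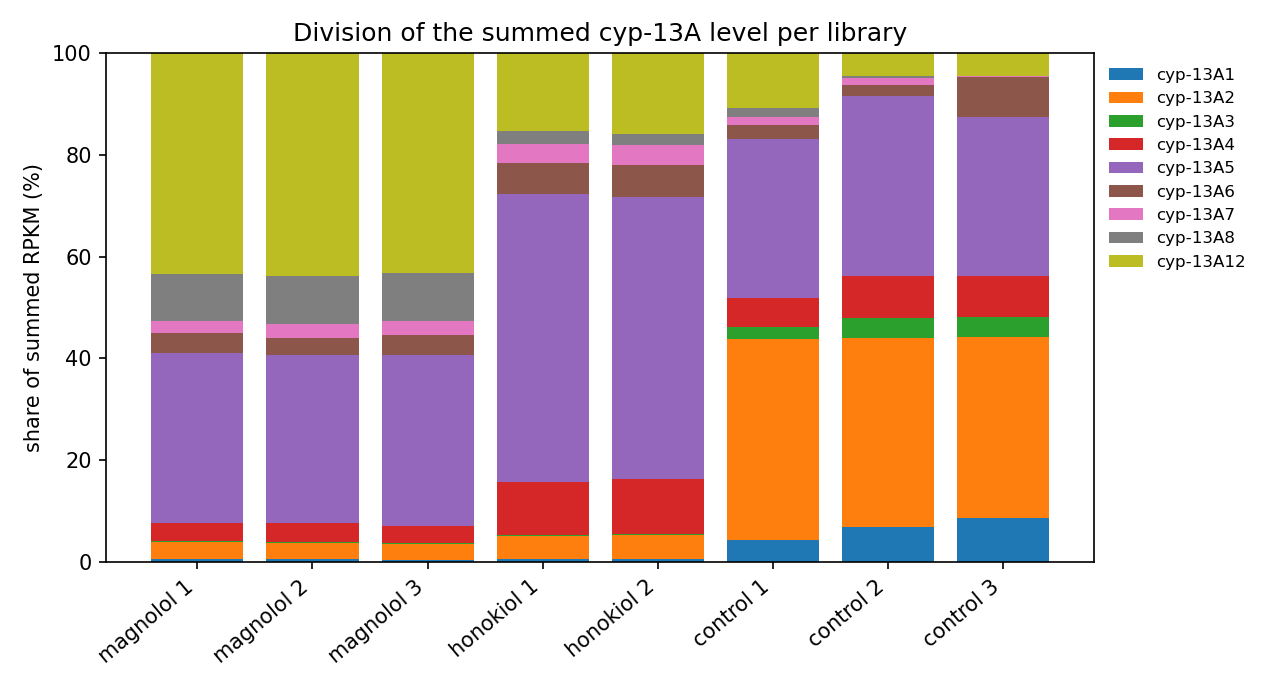
Share of each of the 9 cyp-13A gene models in their summed RPKM, in percent, stacked for each of the 8 libraries. In magnolol libraries cyp-13A12 holds 43.2% to 43.9%, in honokiol libraries cyp-13A5 holds 55.5% to 56.5%, and in control libraries cyp-13A2 holds 35.5% to 39.5%.

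The isomers, given at equal dose for equal time, were then compared directly, as the only pair of compounds in the series. Of the 10 rows, 2 were higher with magnolol, 4 were lower with magnolol, and 4 were not called. Over all tested rows 0.285% were called higher and 1.24% lower with magnolol. The median log2 difference, magnolol over honokiol, was -0.42 for the 10 rows and -0.014 over all rows. The members did not share a direction. Marker sums also lay higher in each magnolol library than in each honokiol library for 3 rows of muscle (5814 to 10007 CPM with magnolol and 3782 to 5526 CPM with honokiol, against 5403 to 6482 CPM in control) and 4 rows of epidermis (741 to 789 and 562 to 645, against 597 to 825 CPM). The same held for 3 rows of germline (1067 to 1289 CPM with magnolol and 886 to 1056 CPM with honokiol, against 1002 to 1054 CPM in control) and 3 rows of neurons (90.8 to 108 and 88.4 to 90.0, against 90.8 to 102 CPM), while the sums of intestine and sperm overlapped. The muscle sum was mostly unc-54 (means of 6853 CPM with magnolol and 4134 CPM with honokiol). There myo-3 lay the same way (572.6 and 409.0 CPM) and tni-1 the other way (104.4 and 110.5 CPM). In the neuron sum unc-13 was higher with magnolol (61.6 and 51.4 CPM), ric-4 lower (29.7 and 31.5 CPM) and rgef-1 nearly level (6.46 and 6.37 CPM). The part of these sums in the isomer differences was not tested.

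The genes higher with magnolol were cyp-13A8 and cyp-13A12. For cyp-13A8 the mean was 130.3 ± 12.8 CPM in magnolol worms and 33.9 ± 2.92 CPM in honokiol worms, a log2 difference of 1.94 ± 0.22 (95% interval 1.48 to 2.40, adjusted p = 8.18e-05 in edgeR). For cyp-13A12 it was 650.3 ± 63.5 CPM in magnolol worms and 245.8 ± 21.1 CPM in honokiol worms, a log2 difference of 1.40 ± 0.23 (0.90 to 1.90, adjusted p = 0.00375 in edgeR). As ratios of means these are 3.85-fold and 2.65-fold. The genes share neither chromosome nor strand, and cyp-13A8 is the end gene of its run.

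The genes lower with magnolol, and so higher with honokiol, were cyp-13A2, cyp-13A4, cyp-13A5 (gene model) and cyp-13A6. The difference was widest for cyp-13A4, at 50.1 ± 6.58 CPM in magnolol worms and 160.6 ± 13.6 CPM in honokiol worms, or -1.68 ± 0.12 on the log2 scale (-1.94 to -1.42, adjusted p = 1.04e-06 in edgeR). The gene model of cyp-13A5 differed by -0.82 ± 0.12 (-1.08 to -0.56, adjusted p = 0.00121 in edgeR), cyp-13A6 by -0.81 ± 0.19 (-1.21 to -0.41, adjusted p = 0.0438 in edgeR) and cyp-13A2 by -0.61 ± 0.12 (-0.87 to -0.34, adjusted p = 0.0188 in edgeR). In each case the honokiol libraries lay above the magnolol libraries. How many of all rows separate in this way was not computed, so nothing is read from the separation of libraries for any member.

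For cyp-13A7 the log2 difference was -0.70 ± 0.19 (-1.10 to -0.30), and although the libraries did not overlap it was not called (adjusted p = 0.0895 in edgeR). For cyp-13A1 the difference was -0.23 ± 0.21, with an interval of -0.67 to 0.22, and for cyp-13A3 -0.09 ± 0.31, with an interval of -0.75 to 0.57. The added locus of cyp-13A5 differed by -0.08 ± 0.18, with an interval of -0.46 to 0.30 that does not reach the interval of its gene model. These intervals are what the data allow, and they do not show that the isomers act alike on these genes.

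The tool mattered for 3 of the 6 calls: DESeq2 on all 8 libraries gave adjusted p = 0.308 for cyp-13A8, 0.0992 for cyp-13A12 and 0.317 for cyp-13A6. With only the magnolol and honokiol libraries DESeq2 gave 5.83e-45, 5.29e-29 and 1.78e-09, and its dispersion for cyp-13A8 was 0.602 with the control libraries and 0.00988 without them. With libraries left out, the edgeR call of cyp-13A6 was also lost without control 1 (adjusted p = 0.0602), magnolol 1 (0.0831), magnolol 2 (0.116), magnolol 3 (0.114) or honokiol 2 (0.425). That of cyp-13A2 was lost without magnolol 1 (0.0544), magnolol 3 (0.114) or honokiol 2 (0.301). For cyp-13A7, not called above, 5 of 19 alternatives gave a call: limma-voom (adjusted p = 0.0073), DESeq2 on only these 2 groups (0.00146), and edgeR on only these groups (0.0211), with no low-count filter (0.0135) or without control 3 (0.00984).

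**Figure D4:**
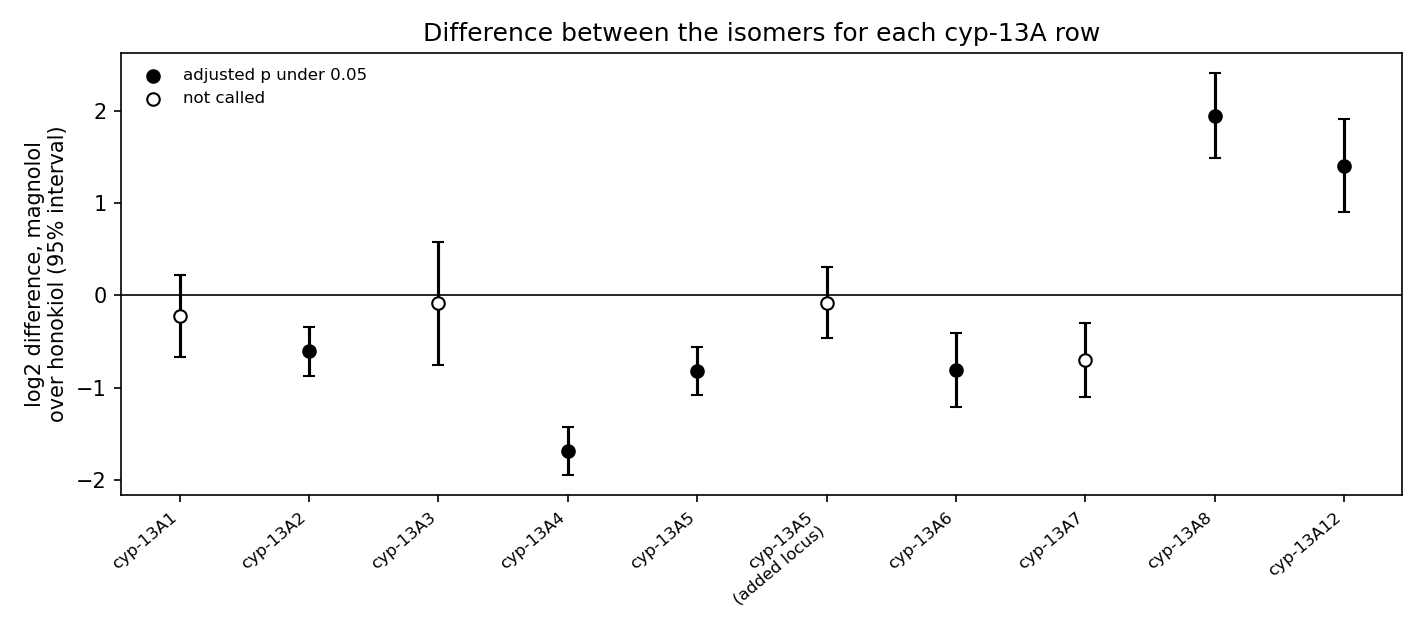
Log2 difference between magnolol and honokiol for each cyp-13A row, in chromosome order with cyp-13A12 last; bars are 95% intervals and filled points are called at adjusted p under 0.05. The gene models of the run, from cyp-13A1 to cyp-13A8, stand at -0.23, -0.61, -0.09, -1.68, -0.82, -0.81, -0.70 and 1.94.

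Genes around the members were examined to see how far the change reached along the chromosome. Of 20 tested rows of neighbouring protein-coding genes, 1 was higher with magnolol and 1 with honokiol, 0 were lower, and 0 differed between the isomers in edgeR. Over all rows 2.16% were called higher with magnolol and 3.04% with honokiol. Before adjustment, p in edgeR was under 0.05 for 2 rows with magnolol, 1 with honokiol and 1 between the isomers. Over all 16813 rows tested it was under 0.05 for 2593, 1822 and 2699 in that order. DESeq2 and limma-voom also called 1, 1 and 0 of the neighbour rows. All tested neighbours of the chromosome II run were uncalled, and the nearest were T10B9.9, 3290 bp to the left, and eyg-1, 18878 bp to the right. With 2 to 25 counts per library, eyg-1 had log2 changes of 0.32 ± 0.91 with magnolol and 0.66 ± 0.99 with honokiol. These are too uncertain to show that it did not rise, and ZK938.3 (1.17 ± 0.95 with magnolol) and arrd-5 (1.29 ± 0.72) were also low. The next gene to the right, ZK938.1 at 21838 bp, had 0.07 ± 0.09 and 0.15 ± 0.10. Symbols without a row, such as ZK938.12, were not analysed here. F54F12.1 stood on 3 of the rows, which were matched by symbol only, so some of them may not be neighbours. The T10B9.9 log2 change was -0.68 ± 0.43 with magnolol and -0.65 ± 0.48 with honokiol. On chromosome III, F14F7.4, whose 3′ end lies 362 bp beyond cyp-13A12, had 17.6 CPM in magnolol worms and 19.3 CPM in honokiol worms, against 20.3 CPM in control. Its log2 changes were -0.20 ± 0.13 and -0.07 ± 0.15, and the collagen gene col-98, 4320 bp on the other side, had -0.05 ± 0.18 and 0.08 ± 0.20. The neighbour that rose was itself a P450, cyp-13A11, 501 bp from cyp-13A12 on the same strand.

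**Figure D5:**
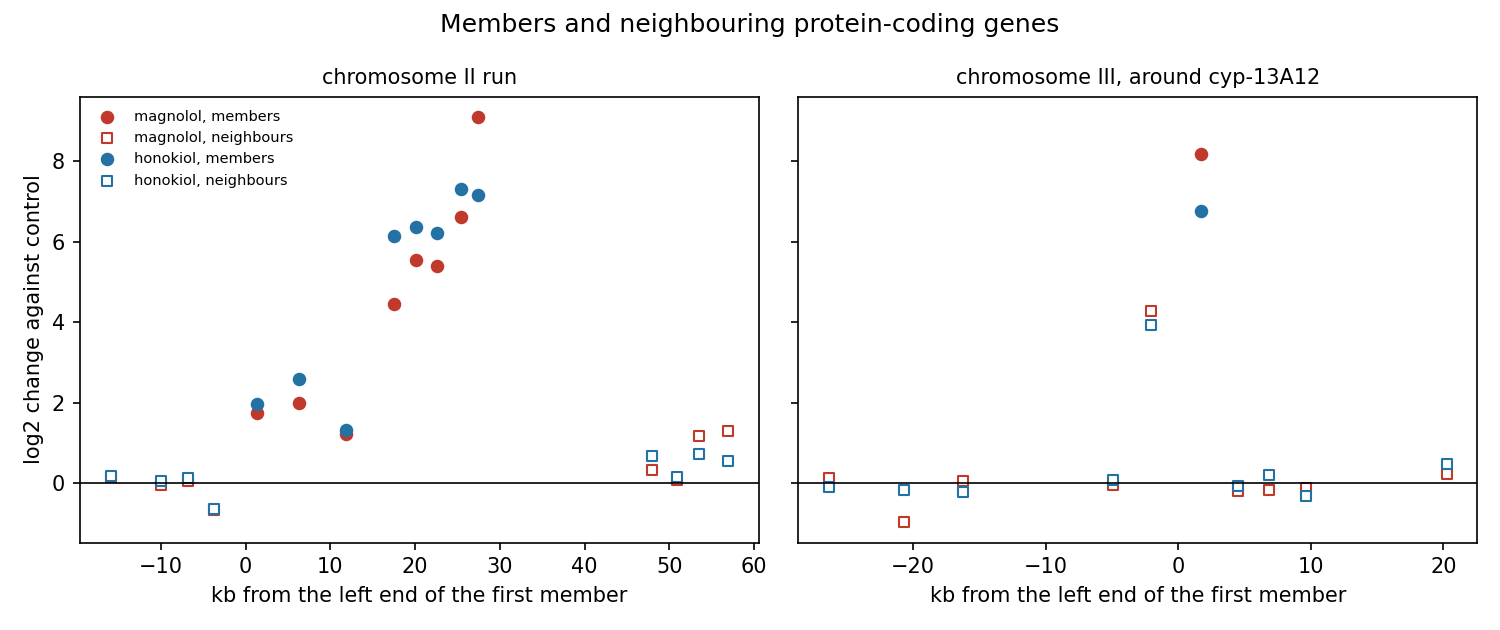
Log2 change against DMSO control of the cyp-13A members (filled circles) and of tested neighbouring protein-coding genes (open squares) by distance in kb from the left end of the first member, for the chromosome II run and for cyp-13A12 on chromosome III. The square far above 0 on chromosome III is cyp-13A11, at 4.27 with magnolol and 3.93 with honokiol; a gene whose symbol stands on several rows is not drawn.

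The cyp-13A11 transcript had 20.9, 26.2 and 23.7 CPM with magnolol and 18.6 and 18.8 CPM with honokiol, against 0.350, 1.55 and 1.82 CPM in control. Its log2 change was 4.27 ± 0.31 with magnolol and 3.93 ± 0.33 with honokiol, and its difference between the isomers, 0.34 ± 0.28, was not called (adjusted p = 0.618 in edgeR). Control 1 was the lowest control library for cyp-13A11 and the highest for cyp-13A12. On chromosome II but outside the run, cyp-13A10 had 10.9, 11.2 and 11.1 CPM with magnolol and 21.1 and 26.5 CPM with honokiol, against 2.10, 1.55 and 2.28 CPM in control. It was lower with magnolol than with honokiol by 1.10 on the log2 scale (-1.10 ± 0.16, adjusted p = 0.00121 in edgeR, and 0.0631 without honokiol 2).

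These genes belong to a list of CYP3 clan relatives outside the 9 members, of which 10 rows were tested. By edgeR, 4 of them rose with magnolol and 0 fell, where 2.16% of all rows were called higher. With honokiol 5 rose and 0 fell, where 3.04% of all rows were called higher. Between the isomers 3 were lower and 0 higher with magnolol, where 1.24% of all rows were called lower. The median log2 change was 0.44 with magnolol and 0.81 with honokiol. Beside cyp-13A10 and cyp-13A11, the called genes were cyp-25A2 (1.34 ± 0.19 with magnolol and 1.23 ± 0.20 with honokiol), cyp-25A3 (0.60 ± 0.11 and 1.36 ± 0.12) and, with honokiol, cyp-13B1. The last was not called with magnolol by edgeR (0.89 ± 0.24, adjusted p = 0.068) or limma-voom (0.082), and was called by DESeq2 (0.0176). The levels of cyp-13B1 were 8.92, 5.80 and 6.31 CPM with magnolol and 29.4 and 35.1 CPM with honokiol, against 2.63, 5.53 and 3.17 CPM in control. The log2 difference of cyp-13B1 between the isomers was -2.20 ± 0.24, and that of cyp-25A3 -0.76 ± 0.12, with adjusted p = 0.00237 in edgeR and 0.0771 without honokiol 2. The other relatives tested, cyp-13B2, cyp-25A1, cyp-25A4 and cyp-43A1, were not called in any comparison, and cyp-25A6 did not pass the low-count filter. No row carried the symbol cyp-25A5.

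P450s need electrons, and the reductase gene emb-8 rose with both compounds. It stood at 401, 505 and 443 CPM with magnolol and 509 and 495 CPM with honokiol, against 220, 208 and 192 CPM in control. Its log2 change was 1.12 ± 0.11 with magnolol and 1.28 ± 0.11 with honokiol, and it was not called between the isomers (-0.16 ± 0.12). Another gene of the electron donor list, cytb-5.2, had no row under that symbol. The cytochrome b5 gene cytb-5.1, whose product can pass electrons to P450s, had 56.3, 56.9 and 58.1 CPM with magnolol and 88.3 and 96.0 CPM with honokiol, against 47.7, 43.04 and 44.9 CPM in control. It rose with honokiol by 1.03 ± 0.09, was not called with magnolol by edgeR or limma-voom (0.34 ± 0.09, adjusted p = 0.0535 and 0.0523) although DESeq2 called it (0.0156), and was lower with magnolol than with honokiol (-0.69 ± 0.09, adjusted p = 6.71e-04 in edgeR).

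Because cyp-13A12 is known to act in the EGL-9 and HIF-1 pathway, 9 genes of that pathway were read beside it. A further gene of that list, nhr-57, had no row under that symbol. With magnolol 0 of 9 were called by edgeR, limma-voom or DESeq2, while p before adjustment was under 0.05 for 1. Over all rows edgeR called 2.16% higher and 0.702% lower with magnolol, and 3.04% higher and 0.393% lower with honokiol. With honokiol 1 was called lower, the collagen prolyl hydroxylase gene phy-2 (-0.76 ± 0.14), at 109.2 CPM against 184.7 CPM in control, with adjusted p = 0.00444 in edgeR and 0.0935 without honokiol 1. Between the isomers 0 were called by these tools. An unadjusted p under 0.05 in edgeR was found for 4 with honokiol and 3 between the isomers. Over all 16813 rows tested it was found for 2593 with magnolol, 1822 with honokiol and 2699 between the isomers. At the same time egl-9 had 37.1 CPM in magnolol worms and 30.7 CPM in honokiol worms, against 38.2 CPM in control, and hif-1 at 264.1, 210.8 and 230.4 CPM in that order. Of the worm relatives of the vertebrate xenobiotic receptor PXR, nhr-48 had no row under that symbol. The log2 changes of nhr-8 were 0.22 ± 0.09 with magnolol and 0.14 ± 0.10 with honokiol, and those of daf-12 were 0.14 ± 0.14 and -0.51 ± 0.16. Neither was called by edgeR. At an unadjusted p under 0.05 there was 1 in each comparison, beside the 2593, 1822 and 2699 of all rows given above. Between the isomers DESeq2 and limma-voom called 1, while edgeR gave daf-12 adjusted p = 0.0565 at 0.65 ± 0.16, magnolol over honokiol.

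The rows outside the 9 genes whose profile over the 8 libraries was nearest to the members' mean profile were R10D12.6, D1022.5, K01A6.4, cyp-34A7 and nhr-178. Their root mean square differences from that profile, on the log2 CPM scale with a prior count of 2, centred per row, were 0.124, 0.435, 0.450, 0.466 and 0.481. Among the members themselves that distance ran from 0.459 for cyp-13A5 to 2.05 for cyp-13A8. R10D12.6 had no read in the 3 control libraries and 1.88 CPM with magnolol and 1.97 CPM with honokiol, at least 20.4-fold and 21.4-fold higher when 3 counts per control library are taken as the floor. D1022.5 was also at 0 in control, with 2.90 CPM in magnolol worms and 1.54 CPM in honokiol worms, or at least 31.6-fold and 16.8-fold higher. With no control read, the distance and the place of R10D12.6 and D1022.5 in this order depend on the prior count. K01A6.4 averaged 1.81 CPM with magnolol and 1.78 CPM with honokiol, against 0.0393 CPM in control. That control level rests on 2, 2 and 0 counts, so the distance of K01A6.4 depends on the prior count as well. The nuclear receptor gene nhr-178 averaged 17.0 CPM with magnolol and 27.6 CPM with honokiol, against 1.06 CPM in control. The P450 gene cyp-34A7 averaged 18.1 CPM with magnolol and 31.0 CPM with honokiol, against 1.01 CPM in control.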

How the data were processed

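The authors deposited whole-number read counts per row for 8 libraries of total RNA, with no normalization. The submitters' processing notes name DESeq2 and the genome WBcel235 without saying what each was used for. No source used here gives the aligner, counting tool, annotation release or strand setting. Members and lists were chosen with earlier results of these data known.

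Rows were filtered by filterByExpr in edgeR 4.0.16 (R 4.3.3) and scaled by TMM. Group means over all 8 libraries were fitted with glmQLFit and compared two-sided with glmQLFTest. A row was called at a Benjamini-Hochberg adjusted p under 0.05 over 16813 rows. Intervals are 95%. RPKM used exon lengths from the WBcel235 annotation. Named genes were all members, called genes of the lists, called neighbours (5 protein-coding genes on each side) and the 5 nearest profiles. Other genes named for their position or role were chosen after their values were seen.

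Alternatives used limma 3.58.1 (voom), DESeq2 1.42.0, other scalings and filters, only the groups compared, a replicate block and each library left out. Added after seeing the data were fits without the added loci, with rows of a symbol summed, and with DESeq2 on only the groups compared. The permutation test of the cyp-13A5 shares was likewise not planned. Planned counts of promoter motifs, protein identities and the share of each member's transcript sequence that another member also holds were not made, as no sequence was used here. Plots used Python 3.11.15, pandas 2.3.3 and matplotlib 3.10.9.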

Additional observations from a re-analysis of the deposited data

How the results depend on the processing

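Against control, 9 or 10 member rows were called in each alternative run, where 1.76% to 5.93% of all rows were called with magnolol and 2.37% to 4.14% with honokiol. These comparisons chose the members, so the count is no sign of stability. The gene that lost its call was cyp-13A3, and fits without the added loci or with rows of a symbol summed held 9 member rows in all. Between the isomers 6 rows were called with edgeR, where 1.53% of all rows were called. DESeq2 on all libraries called 3, beside 4.25% of all rows, and 4 to 7 were called when a library was left out, beside 0.73% to 3.3% of all rows. The log2 difference of cyp-13A3 ran from -0.23 without honokiol replicate 2 to 0.049, a change of sign, without honokiol replicate 1. Whether replicate numbers pair the libraries is not recorded. Same-numbered libraries had deviations correlated at -0.170 to 0.0862, and magnolol and control libraries did not each correlate best with their own number. The deviations of the honokiol libraries mirror each other, and the honokiol library names skip a number. These correlations therefore cannot decide whether libraries were paired, and the block applies only if equal numbers mean a pair. With the replicate number as a block, 9 rows were called with magnolol and 9 with honokiol against control, beside 2.04% and 2.69% of all rows, and 5 between the isomers, beside 0.969%. The call not made under the block was that of cyp-13A2 (-0.53, adjusted p = 0.107 in edgeR). The log2 differences of cyp-13A4 and cyp-13A5 were called under all alternatives run, at -1.80 to -1.60 and -0.89 to -0.76. Where 1 honokiol library was left out, the lone library left was taken to vary as libraries of the other groups did. Low control counts limit the changes of cyp-13A7 and cyp-13A8.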
